A study of Rattus norvegicus with 44 samples.

Results

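The genes described here are 8 genes of corticosteroid signalling in the hippocampus, chosen by symbol: the receptor genes Nr3c1 and Nr3c2, the glucocorticoid targets Fkbp5, Sgk1, Tsc22d3 and Per1, the steroid enzyme gene Hsd11b1 and the corticotropin-releasing hormone receptor gene Crhr1. Rows for 7 of the 8 were found among the 20003 rows of the CA1 table and among the 20050 rows of the table for the dentate gyrus (DG), and Nr3c1 was not analysed here. All 7 had at least 10 normalized reads in at least 6 libraries of each region and were tested. CA1 is the field of pyramidal neurons that sends the main output of the hippocampus, and the DG is the region that holds its granule cells. Polyadenylated RNA was sequenced from both regions of 22 male rats, 1 hippocampus per rat, in 44 libraries. The groups were 8 young rats injected with lipopolysaccharide (young LPS, a bacterial endotoxin given at 1 mg per kg), 6 aged rats injected with saline (aged vehicle) and 8 young rats injected with saline (young vehicle). Young rats were 5 to 7 months old and aged rats 14 to 16 months old. All rats had weekly intraperitoneal injections for 7 weeks, and tissue was collected 48 hours after the last one.

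Corticosterone, the main glucocorticoid of the rat, is released from the adrenal cortex in a daily rhythm and after stress or inflammation. It enters the brain and binds intracellular receptors that act as transcription factors. The mineralocorticoid receptor, encoded by Nr3c2, binds it with high affinity and is abundant in hippocampal neurons, while the glucocorticoid receptor is occupied mainly when the hormone is high. Transcripts such as Fkbp5, Sgk1, Tsc22d3 and Per1 are widely used readouts of receptor activity. Hsd11b1 sets how much active hormone a cell regenerates from its inactive form, and Crhr1 belongs to the peptide system that starts the hormonal stress response.

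Libraries held 12292348 to 18749663 recovered reads in CA1 and 12130183 to 23519788 in DG. The CA1 library of young vehicle rat 2526 stood apart, with a summed level of 9265 normalized reads for 7 of 7 choroid plexus markers, where others reached at most 989.7 in young LPS, 975.9 in aged vehicle and 507.2 in young vehicle, and with the highest sum of meningeal fibroblast markers, 2057. The CA1 library of aged vehicle rat 2532 had the fewest CA1 reads and the lowest share of ribosomal protein reads, 0.491%. Each of its reads counted as 1.46 normalized reads, the most in CA1. CA1 pyramidal markers, 8 of 8 in each table, summed to 24651 to 59133 normalized reads in CA1 and 1432 to 16277 in DG. Their medians in DG were 5959 in young LPS, 10608 in aged vehicle and 4438 in young vehicle, with overlapping ranges. The part of this imbalance in the DG changes was not tested beyond a fit with a dissection score. Granule cell markers, 10 of 10, summed to 8303 to 15171 in DG and 1801 to 8650 in CA1. No marker in either table was at 0 in all libraries. The 2 tables were normalized separately, so these levels were set side by side and not tested. The sample titles give each rat its own number.

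For none of the 7 genes did a change with LPS or with age pass the test in either region. Of the 7, 0 passed an adjusted p of 0.05 (limma on log2 of the normalized count plus 1, Benjamini-Hochberg over all genes tested) for young LPS against young vehicle in CA1, where 0% of 14915 genes passed, and 0 in DG, where 0.0134% of 14904 genes passed. For aged vehicle against young vehicle 0 of 7 passed in CA1 (background 0.0134%) and 0 of 7 in DG (background 0.0134%). Of the members, 0 of 7 reached even an unadjusted p below 0.05 with limma in these 4 comparisons. edgeR and DESeq2 on recovered reads also called 0 of 7 in each, with 1 member, Tsc22d3, at an unadjusted p below 0.05 for age in DG by either tool. In the whole CA1 table LPS gave 0 genes with limma, 1024 at an unadjusted p below 0.05, 0 with edgeR and 1 with DESeq2. Outside Per1 in CA1, described further on, no pair of groups of any member differed past the threshold, neighbours in the order of group means included. The 3 groups of every member overlapped in both regions. Groups did not overlap for 0.0134% of genes in CA1 and 0.0403% in DG for LPS, for 0.235% and 0.0738% for age, and for 0.838% and 0.443% for young LPS against aged vehicle.

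**Figure D1:**
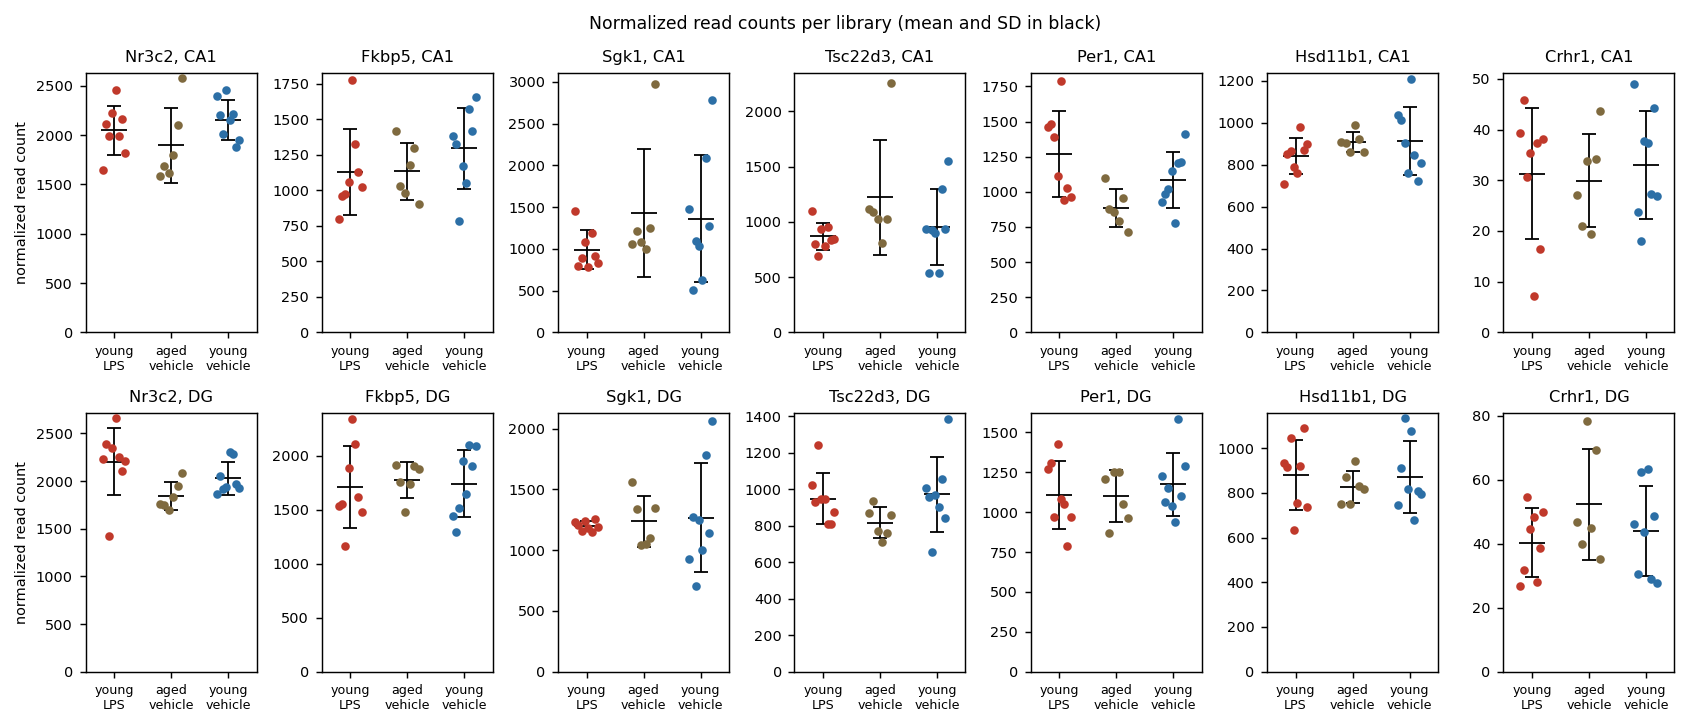
Normalized read counts of the 7 genes per library (y axis, linear from 0) in CA1 (top row) and DG (bottom row), by group, with 1 point per rat and the mean and SD in black. Sgk1 and Tsc22d3 in CA1 have their highest aged vehicle library, 2981 and 2258, far above the other aged libraries, and Sgk1 in DG of young LPS rats spans only 1150 to 1254.

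Nr3c2, the mineralocorticoid receptor gene, had its lowest mean in aged vehicle rats of both regions, and its highest in young vehicle rats in CA1 and in young LPS rats in DG. In CA1 it ran from 1643 to 2455 normalized reads in young LPS (median 2053), from 1590 to 2574 in aged vehicle (median 1741) and from 1876 to 2452 in young vehicle (median 2176). The aged median lay below both young medians, and a single aged library, that of rat 2532, was the highest of all 22 in normalized reads. Its 1765 recovered reads, fewer than the 2640 of young vehicle rat 2410, were scaled up the most in CA1. The log2 change was -0.08 (SE 0.10, limma adjusted p = 0.782) for LPS and -0.20 (SE 0.11, 95% confidence interval -0.43 to 0.02, limma adjusted p = 0.398) for age. With 1 library left out the change for age ran from -0.29 to -0.16. It was -0.52 among rats whose numbers begin with 24 (4 aged against 1 young vehicle). Among those beginning with 25 it was 0.08 (2 against 4). In DG Nr3c2 ran from 1426 to 2657 in young LPS (median 2242), from 1701 to 2088 in aged vehicle (median 1795) and from 1861 to 2309 in young vehicle (median 1950). Young LPS stood highest and aged vehicle lowest there, with a difference of 0.24 on the log2 scale between them (SE 0.10, unadjusted p = 0.0227, limma adjusted p = 0.468). No pair of neighbours in either order differed past the threshold. In bulk tissue, fewer cells of a type and less RNA per cell cannot be told apart.

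Fkbp5 encodes an Hsp90 co-chaperone that lowers the hormone affinity of the glucocorticoid receptor and is itself induced by it. Its CA1 values ran from 797.8 to 1776 in young LPS (median 1041), from 901.4 to 1420 in aged vehicle (median 1104) and from 782 to 1658 in young vehicle (median 1355). In DG it ran from 1166 to 2344 in young LPS (median 1589), from 1481 to 1913 in aged vehicle (median 1819) and from 1299 to 2099 in young vehicle (median 1775). The medians of the young LPS libraries were the lowest in both regions, inside wide and overlapping ranges. In CA1 the log2 change was -0.20 for LPS (SE 0.15, 95% confidence interval -0.52 to 0.12, limma adjusted p = 0.668) and -0.17 for age (SE 0.17, limma adjusted p = 0.590). In DG it was -0.04 for LPS (95% confidence interval -0.28 to 0.21, limma adjusted p = 0.964) and 0.04 for age (95% confidence interval -0.22 to 0.31, limma adjusted p = 1.00).

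Sgk1, a serine/threonine kinase gene induced by both corticosteroid receptors, varied between rats more than any other member in CA1 of the aged and young vehicle groups. Among CA1 libraries it ran from 781.3 to 1450 in young LPS (median 903.6), from 994.3 to 2981 in aged vehicle (median 1147) and from 509.6 to 2789 in young vehicle (median 1189). A single aged rat, 2532, held the 2981 and the next aged library had 1248. In recovered reads rat 2532 had 2044 and young vehicle rat 2731 had 2389. The coefficient of variation (SD over mean) was 23.6% in young LPS, 53.6% in aged vehicle and 55.6% in young vehicle. The log2 change was -0.29 for LPS (SE 0.27, 95% confidence interval -0.86 to 0.27, limma adjusted p = 0.705) and 0.14 for age (SE 0.30, 95% confidence interval -0.47 to 0.75, limma adjusted p = 0.813). The sign turned for LPS without the rats whose numbers begin with 27 (0.17), and for age without rat 2532 (-0.09) and with library weights (-0.48).

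In DG the 8 young LPS libraries of Sgk1 were nearly equal, at 1150 to 1254 (median 1200), while it ran from 1039 to 1561 in aged vehicle (median 1221) and from 706.4 to 2065 in young vehicle (median 1193). The medians of the 3 groups stood close together and the vehicle range enclosed the other ranges. The coefficient of variation was 3.23% in young LPS, 16.9% in aged vehicle and 35.4% in young vehicle, where the median over all 14904 genes was 18% in young LPS, 13.2% in aged vehicle and 18.5% in young vehicle. Counting error alone gives 2.81% at the 947 to 1751 reads behind these LPS values, and 6 of the 14904 genes varied less in DG of young LPS rats. This small spread was noticed after the values were seen and was not tested. The log2 change of the level in DG was -0.0037 for LPS (SE 0.15, 95% confidence interval -0.31 to 0.30, limma adjusted p = 0.998) and 0.03 for age (SE 0.16, limma adjusted p = 1.00).

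Tsc22d3 encodes the glucocorticoid-induced leucine zipper, which restrains inflammatory transcription factors such as NF-kB. CA1 counts ran from 691.6 to 1100 in young LPS (median 842.3), from 808.9 to 2258 in aged vehicle (median 1057) and from 536.6 to 1552 in young vehicle (median 929.3). Rat 2532 again held the highest aged value, and the next aged library had 1118. The log2 change was -0.06 for LPS (SE 0.20, limma adjusted p = 0.921) and 0.36 for age (SE 0.21, 95% confidence interval -0.08 to 0.80, limma adjusted p = 0.418). Without the rats whose numbers begin with 27 the change for LPS was 0.22, and the change for age was 0.17 without rat 2532 and -0.14 with library weights. In DG it ran from 807.5 to 1244 in young LPS (median 937.7), from 708.1 to 935.4 in aged vehicle (median 814.8) and from 656.1 to 1383 in young vehicle (median 962). Here the aged group was the lowest, with a log2 change of -0.23 for age (SE 0.12, 95% confidence interval -0.47 to 0.02, unadjusted p = 0.0666, limma adjusted p = 1.00) and -0.02 for LPS (SE 0.11, limma adjusted p = 0.979).

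Per1, a repressor of the circadian clock that glucocorticoids and cyclic AMP also induce, was the member with a called difference: it was higher in CA1 of young LPS than of aged vehicle rats. In CA1 it ran from 940 to 1790 normalized reads in young LPS (median 1250), from 713 to 1100 in aged vehicle (median 865.5) and from 780 to 1409 in young vehicle (median 1085). All 8 LPS libraries lay above the aged median, the ranges overlapped, and young vehicle stood between. The mean was 1271 ± 305 in young LPS (SD, n = 8), 883 ± 134 in aged vehicle (SD, n = 6) and 1085 ± 197 in young vehicle (SD, n = 8). Young LPS minus aged vehicle was 0.50 on the log2 scale (SE 0.15, 95% confidence interval 0.20 to 0.81, limma adjusted p = 0.0490). It was the 1 member of 7 that passed in this comparison, in which 8.73% of genes passed. Per1 was also the 1 member called by edgeR (adjusted p = 0.0349), where 2144 of 14915 genes passed. The same held for DESeq2 (adjusted p = 0.0128), where 3263 of 14915 genes passed. Neither neighbour in the order differed past the threshold: young LPS minus young vehicle was 0.21 (SE 0.14, limma adjusted p = 0.654) and aged vehicle minus young vehicle -0.29 (SE 0.15, unadjusted p = 0.0612, limma adjusted p = 0.394). With library weights the change was -0.04 for LPS and -0.44 for age, the second past the threshold (limma adjusted p = 0.0290). With these weights 303 of 14915 genes passed for age.

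The call of Per1 lay close to the threshold and turned with the table-wide adjustment. With all libraries 1302 genes of the CA1 table passed in this comparison, and with 1 library left out 0 to 3399 did. Leaving out 1 library at a time, the Per1 difference stayed between 0.43 and 0.57 on the log2 scale, and its limma adjusted p ran from 0.0225 to 0.122. The call was lost without young LPS rat 2404, 2408, 2527, 2543 or 2717, without aged vehicle rat 2415, 2420, 2531 or 2532, and without young vehicle rat 2410, 2526, 2571, 2722, 2728 or 2731. Young vehicle rats are not part of this difference but were fitted together with the other groups. Without aged rat 2532 the difference was 0.44 (limma adjusted p = 0.122), and without LPS rat 2543 it was 0.43 (limma adjusted p = 0.104). The rat numbers begin with 24, 25 or 27, and the labels do not say what these number series are. Within the 24 series the difference was 0.68 (3 LPS against 4 aged rats) and within the 25 series 0.51 (4 LPS against 2 aged rats), while the 27 series holds no aged rat. Within the series young LPS minus young vehicle was 0.64 in the 24 series (3 against 1 rat), 0.27 in the 25 series (4 against 4) and -0.40 in the 27 series (1 against 3). In DG Per1 ran from 789.1 to 1427 in young LPS (median 1066), from 872 to 1255 in aged vehicle (median 1131) and from 941.5 to 1585 in young vehicle (median 1128), and young LPS minus aged vehicle was 0.00 (SE 0.12, 95% confidence interval -0.25 to 0.26, limma adjusted p = 0.998).

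Hsd11b1 encodes the enzyme that regenerates active corticosterone from its inactive 11-keto form inside cells. It was the steadiest member in CA1 of aged rats, with a coefficient of variation of 5.22% there, against 18% in young vehicle. Counts in CA1 ran from 706.5 to 978.4 in young LPS (median 859), from 860.2 to 988.5 in aged vehicle (median 905.7) and from 723.5 to 1211 in young vehicle (median 875.1). In DG it ran from 635.5 to 1091 in young LPS (median 919.2), from 749.9 to 940.9 in aged vehicle (median 824.9) and from 676.9 to 1135 in young vehicle (median 813.7). The ranges of the 3 groups overlapped in both regions. Its log2 change in CA1 was -0.11 for LPS (95% confidence interval -0.31 to 0.09, limma adjusted p = 0.703) and 0.01 for age (95% confidence interval -0.21 to 0.23, limma adjusted p = 0.971). In DG it was 0.01 for LPS (95% confidence interval -0.21 to 0.24, limma adjusted p = 0.987) and -0.06 for age (95% confidence interval -0.30 to 0.19, limma adjusted p = 1.00).

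Crhr1, the G protein-coupled receptor gene for corticotropin-releasing hormone, rested on few reads, 8 to 54 in CA1 and 22 to 83 in DG. In CA1 it ran from 7.185 to 45.79 normalized reads in young LPS (median 36.29), from 19.42 to 43.76 in aged vehicle (median 30.48) and from 18 to 49.02 in young vehicle (median 32.26). In DG it ran from 26.73 to 54.69 in young LPS (median 41.67), from 35.24 to 78.44 in aged vehicle (median 45.73) and from 27.69 to 63.35 in young vehicle (median 45.01). No group stood outside another. The log2 change in DG was 0.25 for age (SE 0.24, 95% confidence interval -0.24 to 0.75, limma adjusted p = 1.00) and -0.10 for LPS (SE 0.22, limma adjusted p = 0.942). For CA1 the values were -0.13 for age (SE 0.33, limma adjusted p = 0.857) and -0.18 for LPS (SE 0.30, limma adjusted p = 0.840), with intervals of -0.80 to 0.55 and -0.80 to 0.45.

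**Figure D2:**
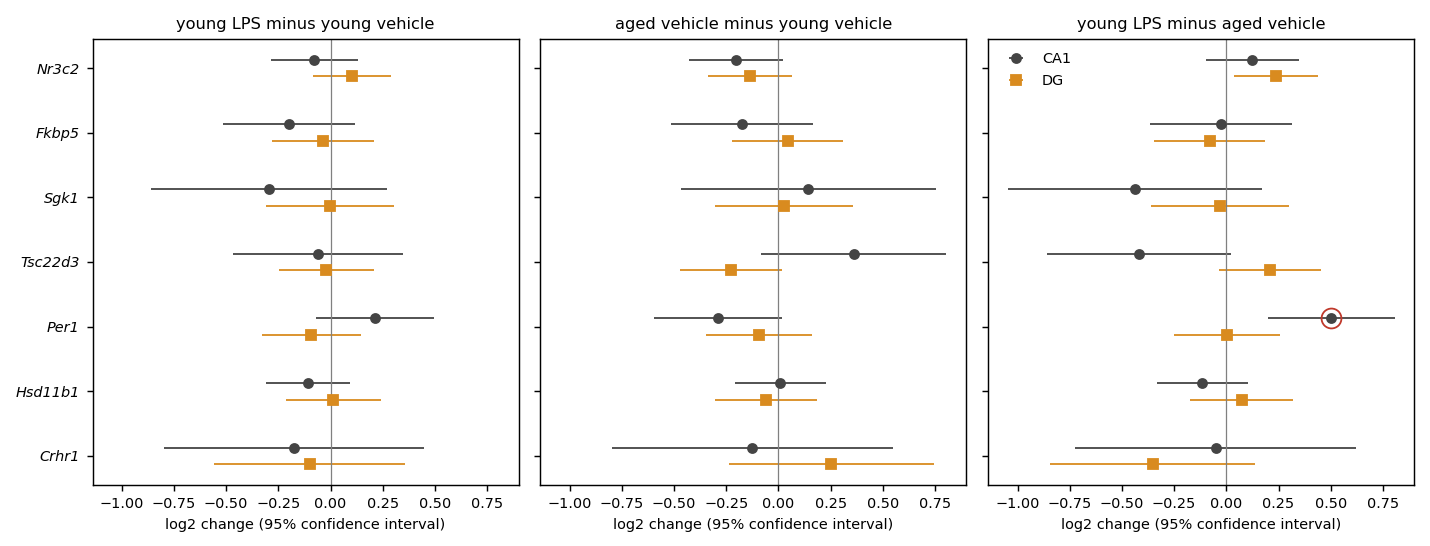
Log2 changes of the 7 genes (x axis) with 95% confidence intervals in CA1 (circles) and DG (squares) for the 3 comparisons, from the limma fit of each region. The ring marks the called change, Per1 in CA1 for young LPS minus aged vehicle (0.50, interval 0.20 to 0.81). All intervals for LPS and for age include 0.

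Young LPS against aged vehicle was compared in DG as well, where 0 of 7 members passed (background 0.0134%), 1 of 7, Nr3c2, had an unadjusted p below 0.05, and edgeR and DESeq2 each called 0. In CA1 the members other than Per1 did not pass: Tsc22d3 was at -0.42 (SE 0.21, unadjusted p = 0.0615, limma adjusted p = 0.159) and Sgk1 at -0.44 (SE 0.30, limma adjusted p = 0.285). Without aged rat 2532 the values were -0.23 for Tsc22d3 (limma adjusted p = 0.462) and -0.20 for Sgk1 (limma adjusted p = 0.677). Within the number series Tsc22d3 was at -0.24 in the 24 series and -0.80 in the 25 series, which holds rat 2532, and Sgk1 was at -0.11 and -0.98. The comparison shares its LPS rats with the LPS comparison and its aged rats with the age comparison. The median change of the 7 members in CA1 was -0.05 on the log2 scale for young LPS minus aged vehicle, where the median of all genes was 0.02.

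Whether an effect differed between CA1 and DG was tested on all 44 libraries. The main fit left out the pairing of the 2 regions within a rat, and the fit with the rat as block kept it. For LPS 0 of 7 members passed (background 0%), and for age 0 of 7 (background 0%), with 0 and 1 members at an unadjusted p below 0.05. With the rat as replicate block it was 0 of 7 for both (background 0% for both), with 1 member each at an unadjusted p below 0.05. For young LPS minus aged vehicle 0 of 7 passed, where 13.1% of 14637 genes did. Per1 had the larger difference in CA1, 0.50 in CA1 and 0.00 in DG, a gap of 0.50 on the log2 scale (SE 0.20, 95% confidence interval 0.10 to 0.90, limma adjusted p = 0.0738). With the rat as replicate block the gap was 0.50 (SE 0.16, limma adjusted p = 0.0413), past the threshold, where 12.6% of genes passed. Without aged rat 2532 the gap without a block was 0.48 (limma adjusted p = 0.152). Tsc22d3 pointed in opposite directions in the 2 regions for young LPS minus aged vehicle, -0.42 in CA1 and 0.21 in DG, a gap of -0.63 (SE 0.25, 95% confidence interval -1.14 to -0.12, limma adjusted p = 0.0797, and 0.0503 with the rat as replicate block). For age its gap was 0.59 (SE 0.25, 95% confidence interval 0.08 to 1.10, unadjusted p = 0.0246, limma adjusted p = 0.757). Without aged rat 2532 the 2 gaps of Tsc22d3 were -0.45 (limma adjusted p = 0.241) and 0.41 (limma adjusted p = 1.00).

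Within groups, Sgk1 and Tsc22d3 deviated together from rat to rat, most closely in CA1. Both were highest in aged rat 2532 (2981 and 2258) and in young vehicle rats 2731 (2789 and 1552) and 2722 (2094 and 1294), and both were low in young vehicle rats 2523 (509.6 and 536.9) and 2572 (630 and 536.6). With group means removed, Pearson's r over the 22 CA1 libraries was 0.958 and Spearman's rho 0.881. The permutation p was 1e-05 for both, the smallest that 100000 permutations can give, and over all genes the adjusted p was 0.00648 for r with Sgk1 as the first gene and 0.0169 with Tsc22d3 first. Tsc22d3 was the closest of 14914 genes to Sgk1, and Sgk1 the closest of 14914 to Tsc22d3. Of the 21 pairs of members in CA1 it was the 1 called, beside a background of 28.1% of genes called for Sgk1 and 22.5% for Tsc22d3. Without rats 2532 and 2731, the farthest from the median of Sgk1, r was 0.926. Within the number series r was 0.823 in the 24 series (8 libraries) and 0.979 in the 25 series (10 libraries), and the 27 series holds 4 libraries, too few for a value.

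In DG the same pair had r of 0.723 and rho of 0.607 (permutation p = 0.00139 and 0.00466, adjusted over all genes 0.235 and 0.352), and 0 of 21 member pairs passed there. Tsc22d3 ranked 36 of 14903 genes by r with Sgk1, and Sgk1 ranked 7 of 14903 for Tsc22d3. Young vehicle rat 2731 was highest in both (2065 and 1383) and rat 2526 lowest in both (706.4 and 656.1). Without these 2 libraries r was 0.354, so the relation in DG rests on them. Within the number series r was 0.343 in the 24 series and 0.842 in the 25 series.

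**Figure D3:**
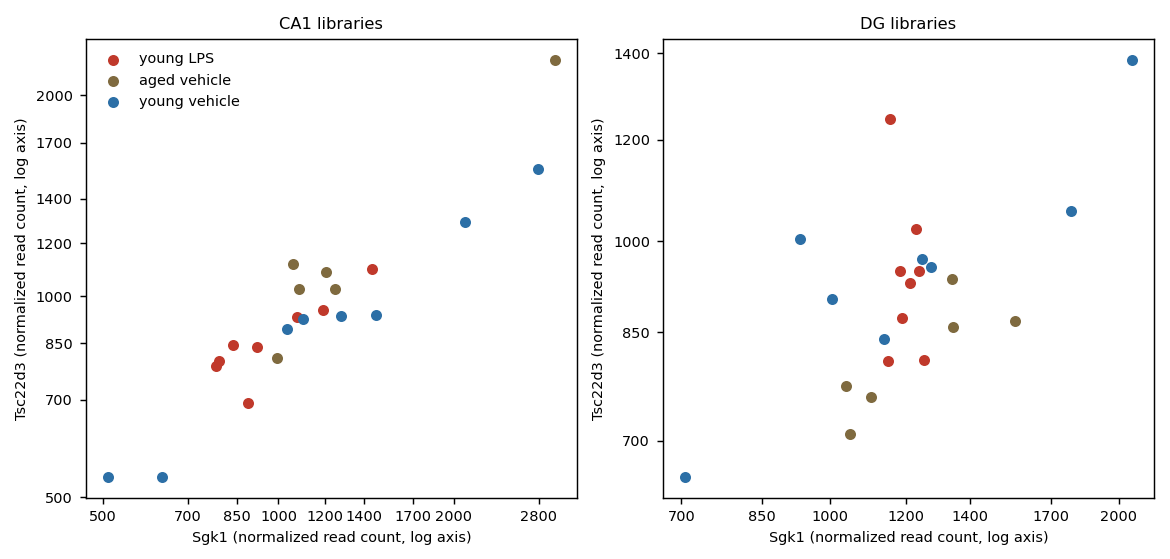
Sgk1 (x axis) against Tsc22d3 (y axis), normalized read counts on log axes, 1 point per library, in CA1 (left) and DG (right), coloured by group. In CA1 the points of all groups lie along 1 line from 2 young vehicle libraries at the lower left to aged rat 2532 at 2981 and 2258. In DG the 8 young LPS libraries stand in a narrow column at 1150 to 1254 on the Sgk1 axis.

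The depth of the CA1 libraries moved with this pair. Over the 22 libraries, with group means removed, log2 recovered reads had r of -0.714 with Sgk1 (permutation p = 0.00054, adjusted 0.0265 over 196 relations of members with marker lists and library measures) and -0.681 with Tsc22d3 (permutation p = 0.00103, adjusted 0.0336). The ranks gave rho of -0.596 (permutation adjusted p = 0.0985) and -0.460 (permutation adjusted p = 0.279). Without rats 2532 and 2731 r was -0.458 for Sgk1 and -0.388 for Tsc22d3. Within the series r with reads was -0.889 and -0.461 for Sgk1 (24 and 25 series) and -0.571 and -0.524 for Tsc22d3. The share of ribosomal protein reads, 0.491% in rat 2532 to 1.36% in rat 2523, had r of -0.699 with Sgk1 (permutation adjusted p = 0.0701) and -0.680 with Tsc22d3 (permutation adjusted p = 0.0773). In DG the depth had r of -0.12 with Sgk1 and 0.0035 with Tsc22d3. The part of depth and of this share in the relation was not tested.

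Promoter windows of the pair are shown because the genes moved together. RefSeq's table for GRCr8, matched by symbol, held windows of 300 bases (250 before and 50 after the start) for 5 of 7 members, 10 windows in all, and none of Nr3c2 or Hsd11b1. Sgk1 has 3 windows and Tsc22d3 has 3, on the minus strands of chromosomes 1 and X. The 3 windows of the pair that hold a TATA box are printed in the direction of transcription, at chr1:24807182-24807481 and chr1:24804782-24805081 for Sgk1 and chrX:109009985-109010284 for Tsc22d3, with capitals for the GC box (GGGCGG), the CCAAT box (CCAAT) and the TATA box (TATAAA), searched on both strands.
Sgk1, window at 24807182: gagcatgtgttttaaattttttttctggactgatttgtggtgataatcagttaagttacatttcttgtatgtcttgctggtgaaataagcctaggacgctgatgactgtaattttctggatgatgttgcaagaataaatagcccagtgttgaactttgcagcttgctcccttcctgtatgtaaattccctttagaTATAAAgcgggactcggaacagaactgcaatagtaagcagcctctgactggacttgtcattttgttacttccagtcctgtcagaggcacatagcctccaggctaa
Sgk1, window at 24804782: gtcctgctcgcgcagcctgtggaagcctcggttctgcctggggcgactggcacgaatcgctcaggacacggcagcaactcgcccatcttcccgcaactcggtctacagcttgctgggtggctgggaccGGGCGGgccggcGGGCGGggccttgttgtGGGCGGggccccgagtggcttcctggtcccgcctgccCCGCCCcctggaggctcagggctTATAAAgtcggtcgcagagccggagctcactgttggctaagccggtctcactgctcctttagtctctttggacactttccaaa
Tsc22d3, window at 109009985: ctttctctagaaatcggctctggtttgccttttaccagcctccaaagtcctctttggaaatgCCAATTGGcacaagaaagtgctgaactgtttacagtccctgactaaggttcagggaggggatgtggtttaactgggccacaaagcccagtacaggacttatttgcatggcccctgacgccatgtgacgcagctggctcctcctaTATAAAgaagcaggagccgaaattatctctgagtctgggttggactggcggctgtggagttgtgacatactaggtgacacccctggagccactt
In Sgk1 the TATA box begins 55 bases before the start in the window at 24807182 and 33 bases before it in the window at 24804782, and in Tsc22d3 it begins 44 bases before. TATAAA occurs in 14.2% of 33469 windows of this length, GGGCGG in 33.1% and CCAAT in 37.5%. The 2 CCAAT matches in the Tsc22d3 window, 1 on each strand, overlap. The glucocorticoid response element, searched as AGAACA and TGTTCT with 3 bases between them, was in none of the 10 windows of the members and in 0.0149% of all windows. Its looser form, GNACA and TGTNC with 3 bases between them, takes in the first and occurs in 0.439%, and the half-site AGAACA alone, part of the first, in 20.7%. Neither was found in the 10 windows, nor were the cyclic AMP response element TGACGTCA (1.83% of windows) and the E-box CACGTG (6.42%). These letters were searched in the windows alone, which say nothing of more distant sites. By base composition the Sgk1 window at 24807182 is 40.7% G and C and the one at 24804782 is 66% G and C, and the Tsc22d3 window is 50.7% G and C. The Fkbp5 window is 77% G and C, above 97.9% of windows.

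Fkbp5 in CA1 moved against markers of oligodendrocytes and of endothelial cells, while its r with Sgk1 was 0.073 and with Tsc22d3 0.040, neither past the threshold. Its r with the mean log2 level of 10 of 10 mature oligodendrocyte markers was -0.776 and rho -0.772 (permutation p = 3e-05 and 5e-05, adjusted 0.00588 and 0.0049 over 196 relations). With 8 of 8 endothelial markers r was -0.792 and rho -0.801 (permutation p = 8e-05 and 3e-05, adjusted 0.00784 and 0.0049). Without the 2 libraries farthest from the median of each list r was -0.778 and -0.718. Within the number series r with the oligodendrocyte list was -0.586 and -0.802 (24 and 25 series), and with the endothelial list -0.729 and -0.773. With granule cell markers r was 0.601 (permutation adjusted p = 0.0807) and rho 0.727 (permutation adjusted p = 0.0176). Every other list had a negative r, and none passed. It was -0.585 for mural cells, -0.537 for meningeal fibroblasts, -0.505 for choroid plexus and -0.435 for astrocytes. For blood cells it was -0.390, for microglia -0.271, for CA1 pyramidal neurons -0.163 and for GABAergic interneurons -0.0395. Oligodendrocyte markers summed to 109164 to 235156 normalized reads in young LPS, 107114 to 171035 in aged vehicle and 96909 to 185520 in young vehicle. Endothelial markers summed to 4027 to 6231 in young LPS, 4075 to 5515 in aged vehicle and 3598 to 6044 in young vehicle. In DG r was -0.515 with the oligodendrocyte list and -0.478 with the endothelial list, and neither passed. These relations were chosen after the values were seen, and the part of the markers in the level of Fkbp5 was not tested.

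**Figure D4:**
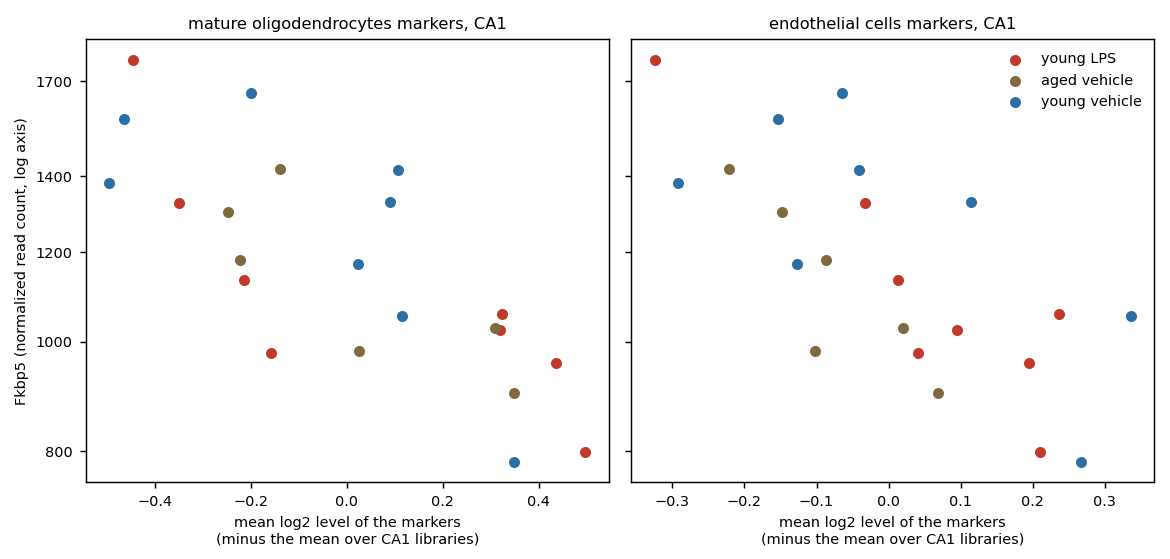
Fkbp5 in CA1 (y axis, normalized read count, log axis) against the mean log2 level of mature oligodendrocyte markers (left) and endothelial markers (right), each minus its mean over CA1 libraries, 1 point per library, coloured by group. Libraries with more of either marker list have less Fkbp5 (r -0.776 and -0.792 with group means removed).

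Other relations of the members with the lists were fewer. Hsd11b1 in DG had r of 0.748 with the share of ribosomal protein reads (rho 0.679, permutation adjusted p = 0.0265 and 0.0857, r 0.605 without rats 2526 and 2572, and 0.290 and 0.761 within the 24 and 25 series) and 0.652 with blood cell markers, 3 of 4 listed genes (rho 0.609, permutation adjusted p = 0.044 and 0.0906, r 0.400 without the same 2 rats, and 0.402 and 0.670 within the series). Its r with microglial markers, 8 of 8, was 0.615 in CA1 and 0.627 in DG (permutation adjusted p = 0.0773 for both), and passed in neither region. Nr3c2 in DG had r of 0.650 with the mean log2 level of 2 of 7 choroid plexus markers (rho 0.688, permutation adjusted p = 0.0336 and 0.0451, r 0.692 without rats 2527 and 2532, and 0.682 and 0.590 within the series). Only these 2 passed the filter on low values in DG, and the 3 found there summed to 26.99 to 351.4 normalized reads. In all, 7 of 196 relations passed for r. The part of each list in these levels was not tested.

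Among other pairs of members, Per1 and Hsd11b1 moved in opposite directions within groups, with r of -0.660 in CA1 (rho -0.668, permutation p = 0.00105, adjusted 0.0607 with Per1 first and 0.158 with Hsd11b1 first) and -0.557 in DG (rho -0.412, adjusted 0.128 and 0.0908), where 0.986% of genes passed for Per1 in CA1, 3.28% for Per1 in DG, 0% for Hsd11b1 in CA1 and 8.61% for Hsd11b1 in DG. In DG Crhr1 and Sgk1 had r of -0.659 (rho -0.715, permutation adjusted p = 0.235 with Sgk1 first and 0.540 with Crhr1 first), and Nr3c2 and Fkbp5 had r of 0.606 (rho 0.452, permutation adjusted p = 0.121 with Fkbp5 first). None of these passed, and 0 of 6 pairs with Fkbp5 passed in either region, where 8.42% of genes passed in CA1 and 2.01% in DG. Fkbp5 and Per1, both known targets of the glucocorticoid receptor, had r of 0.391 in CA1 and 0.207 in DG.

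Each gene in CA1 was also set against itself in DG over the 22 rats with group means removed. Fkbp5 had the closest relation of the members, r of 0.601 and rho of 0.621 (permutation p = 0.00721 and 0.00389, adjusted over 14637 genes 0.532 and 0.561), a higher r than 99.05% of genes. It was 0.464 without rats 2543 and 2526, 0.398 within the 24 series and 0.595 within the 25 series. Sgk1 followed with r of 0.454 (0.201 without rats 2532 and 2731), then Per1 with 0.399, Hsd11b1 with 0.388, Nr3c2 with 0.363, Tsc22d3 with 0.317 and Crhr1 with -0.077. None of the 7 passed, where 0% of genes did and 982 had an unadjusted p below 0.05.

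**Figure D5:**
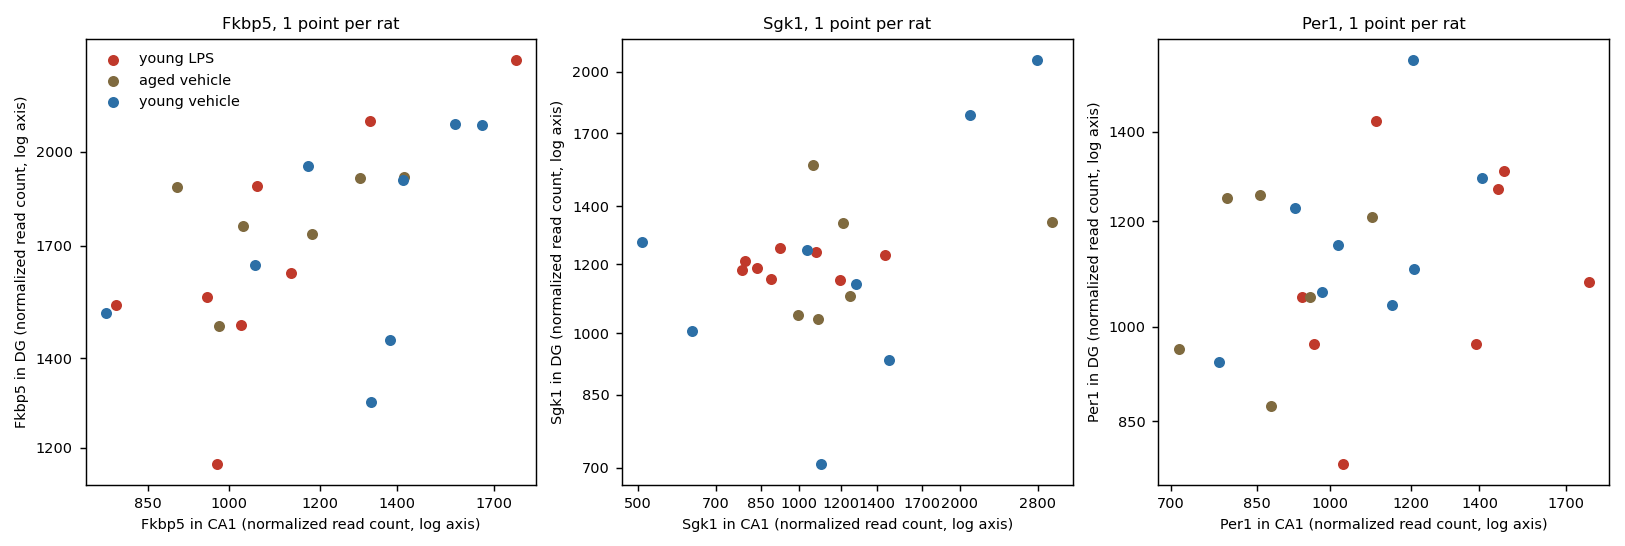
Fkbp5, Sgk1 and Per1 in CA1 (x axis) against DG (y axis) of the same rat, normalized read counts on log axes, 1 point per rat, coloured by group. With group means removed r was 0.601 for Fkbp5, 0.454 for Sgk1 and 0.399 for Per1, and none passed after adjustment.

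The genes most like each member were taken as those with the highest value of the smaller of the 2 r in CA1 and DG, over 22 libraries each and 14636 genes. For Fkbp5 these were Mpp3 (0.854 in CA1 and 0.812 in DG) and Camk2b (0.826 and 0.811). For Sgk1 they were B4galt6 (0.787 and 0.808) and Pkd2 (0.786 and 0.774). For Tsc22d3 they were AABR07028352.1 (0.795 and 0.734) and Sgk1 itself (0.958 and 0.723). For Per1 they were Abcc10 (0.742 and 0.733) and Taf1c (0.777 and 0.720), and for Hsd11b1 Ndufb8 (0.753 and 0.841) and Manf (0.751 and 0.773). For Nr3c2 they were AABR07035946.1 (0.787 and 0.813) and Lats2 (0.756 and 0.766). Crhr1, at its low counts, had its closest relations with LOC300249 (0.559 and 0.566) and Camk1g (0.530 and 0.622). These genes are the tops of a ranking over all genes, and the ranking itself was not tested. In the tests by region, 0 genes passed for Nr3c2 or Crhr1 in either region. The count was also 0 for Sgk1 and Tsc22d3 in DG and for Hsd11b1 in CA1.

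Further genes of the pathway were listed in 6 groups: other glucocorticoid-responsive genes, receptor chaperones, receptor coregulators, the system of corticotropin-releasing hormone and ACTH, steroid synthesis, inactivation and export, and the circadian clock. In CA1, 38, 14, 13, 6, 10 and 19 of them were tested, in that order, and in DG 38, 14, 14, 6, 9 and 19. With limma 0 genes of the 6 groups passed for LPS or for age in either region. The counts at an unadjusted p below 0.05, in the same order of groups, were 1, 2, 0, 0, 0 and 3 for LPS in CA1, where 1024 of 14915 genes reached it, and 1, 3, 0, 1, 0 and 1 for LPS in DG, where 1122 of 14904 did. For age they were 6, 2, 2, 1, 0 and 2 in CA1, where 1882 of 14915 genes reached it, and 2, 0, 0, 0, 0 and 2 in DG, where 446 of 14904 did.

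Called genes appeared in CA1 for young LPS against aged vehicle. Of the 38 responsive genes 2 were higher and 2 lower, and of the 14 chaperones 2 were lower, counts to be read against the 8.73% of all genes that passed. Mt1, a metal-binding metallothionein, averaged 121 ± 36.3 normalized reads in young LPS (SD, n = 8) and 60.1 ± 12.9 in aged vehicle (SD, n = 6), with a fitted change in log2 of 0.97 (SE 0.26, limma adjusted p = 0.0490). Mertk, a receptor for the uptake of dying cells, averaged 731 ± 76.5 in young LPS and 1146 ± 429 in aged vehicle, with a fitted change in log2 of -0.59 (SE 0.14, limma adjusted p = 0.0490). Bcl2l1, which opposes apoptosis, was at 0.46 (1442 ± 335 in young LPS and 1039 ± 200.1 in aged vehicle) and Tgfbr1, a receptor of transforming growth factor beta, at -0.57 (476 ± 82.8 in young LPS and 737 ± 291 in aged vehicle). Among the chaperones Ptges3, the p23 co-chaperone of Hsp90, was at -0.71 (816 ± 243 in young LPS and 1333 ± 476 in aged vehicle) and Hspa4, a chaperone of the Hsp70 superfamily, at -0.52 (3090 ± 465 and 4597 ± 1714), and 0 were higher. The limma adjusted p of these 4 genes was 0.0490 as well, and 0 of 6 genes of the hormone system and 0 of 10 steroid genes passed. The median change was 0.05 for the responsive genes and 0.14 for chaperones, beside 0.02 for all genes.

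In the same comparison as Per1, 2 of the 19 listed clock genes were higher and 1 was lower. Nr1d1, a repressor known as Rev-erb alpha, averaged 2384 ± 595 in young LPS (SD, n = 8) and 1548 ± 228 in aged vehicle (SD, n = 6), with a fitted change in log2 of 0.60 (SE 0.16, limma adjusted p = 0.0490). Dbp, a clock output factor, averaged 1754 ± 346 in young LPS and 1282 ± 238 in aged vehicle, with a fitted change in log2 of 0.45 (SE 0.14, limma adjusted p = 0.0490). Nr1d2, the paralog of Nr1d1, went the other way, at 980 ± 194 in young LPS and 1459 ± 455 in aged vehicle, with a fitted change in log2 of -0.55 (SE 0.16, limma adjusted p = 0.0490). In the same comparison 521 genes of 14915 were higher and 781 lower. Without aged rat 2532, or without the rats of the 27 series, 0 genes of the whole table passed, so none of these calls held.

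The genes of the groups nearest the threshold for LPS or age did not pass. For LPS in DG, Hspa8, an Hsp70 chaperone, averaged 68.2 ± 34.2 in young LPS (SD, n = 8) and 119 ± 24.4 in young vehicle (SD, n = 8), with a fitted change in log2 of -0.91 (SE 0.22, unadjusted p = 0.000268, limma adjusted p = 0.515). Nfkbia, the inhibitor of NF-kB that glucocorticoids induce, was at -0.29 (SE 0.11, limma adjusted p = 0.561) in DG for LPS. In CA1 for LPS, Sdc4, a syndecan, was at 0.27 (SE 0.10, limma adjusted p = 0.654) and Nr1d1 at 0.37 (SE 0.15, limma adjusted p = 0.654). For age, Mertk was at 0.46 in CA1 (SE 0.14, limma adjusted p = 0.393), with 1146 ± 429 in aged vehicle and 800 ± 73.7 in young vehicle. Plin4, a lipid droplet protein gene, was at 0.55 in DG for age (SE 0.20, limma adjusted p = 1.00), and Cry2, a clock repressor, at -0.20 (SE 0.07, limma adjusted p = 1.00). Pomc, the precursor of ACTH, averaged 12.7 ± 8.52 in aged vehicle and 27.7 ± 18.9 in young vehicle in CA1, with a fitted change in log2 of -1.13 (SE 0.45, unadjusted p = 0.0189, limma adjusted p = 0.393). H6pd, which supplies the cofactor of the Hsd11b1 enzyme, was at 0.31 in CA1 for LPS (SE 0.17, limma adjusted p = 0.654).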

How the data were processed

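RNA with poly(A) tails from CA1 and DG was made into libraries for Ion Torrent sequencing, per the labels' protocols. The authors deposited a table per region of normalized read counts, a signal that is never negative. The submitters' processing notes name STAR, Partek, DESeq2 and the build rn6, without versions or roles; the annotation, filters and strand setting were not stated in the sources used here, so overlapping and antisense genes could share reads. Each library's values are multiples of the value of 1 read, 0.818 to 1.46 in CA1 and 0.659 to 1.32 in DG, and 99.72% (CA1) and 99.94% (DG) of values gave whole reads within a tolerance of 0.1. In CA1, 743 rows hold some values given to 3 significant digits, Sgk1 and Per1 among them. Reads carry no molecular identifiers, so counting errors cover the sampling of reads only. Groups and rat numbers come from the labels. Replicates always differed by more than counting noise (lowest chi-square per gene between libraries of a group 4.59 in CA1 and 6.64 in DG).

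A gene was tested where 6 or more libraries of a region reached a value of 10. Tests used limma 3.58.1 (R 4.3.3; trend and robust options) on log2(value + 1), with all 3 groups of a region fitted together, p-values adjusted by Benjamini-Hochberg and called below 0.05; fold changes on this scale understate those of low genes. Region differences used all 44 libraries, in the main fit without the pairing by rat. The labels pair the regions, since both came from 1 hippocampus of each rat. Across genes, deviations from group means in CA1 and DG of a rat correlated at a median of 0.0513. The lowest was -0.249 and the highest 0.268, with 8 of the 22 rats above 0.1. In 1 of the 22 rats the CA1 library correlated most with the DG library of the same rat. Correlations used values with group means removed and 100000 two-sided permutations within groups, with p-values adjusted over all genes. Alternatives were pseudocounts of 5 and 0.25, no filter or a mean of at least 50, TMM factors, 2 groups alone, library weights, the leading digits of the rat numbers (24, 25 or 27, the number series), a dissection score (CA1 pyramidal minus granule cell markers), edgeR 4.0.16 and DESeq2 1.42.0 on recovered reads, each library left out, the rat as block, and, chosen after seeing the data, leaving out the rats whose numbers begin with 27. Relations with marker lists and library measures were also chosen then. The procedures were tested on simulated data. For LPS, genes given a true log2 shift of 0.5 were found in 37.3% of cases in CA1 and 56.7% in DG. For the region difference of LPS it was 17.9%. At a shift of 1 these shares were 86.6%, 83.6% and 70.8%, and shifts below 0.5 were not simulated. Genes without a shift that were called numbered 16, 5 and 11, in the same order. Pairs with a true r of 0.7 were found in 22% of cases over libraries and 46% over rats. Genes named are the members, pathway genes past the threshold (otherwise the 2 of each list with the smallest p for LPS and for age, of which the text gives some), and the 2 genes most like each member. For receptor coregulators in CA1, the result of young LPS against aged vehicle is not reported here. The members and lists were chosen with earlier results of these data known.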

Additional observations from a re-analysis of the deposited data

Results flagged for a closer look

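In 3 of the 42 groups of member values a single library stood far from the others of its group, by Dixon's criterion, which flags about 1 in 20 groups by chance. Sgk1 in CA1 of aged vehicle rat 2532 was 2981 normalized reads, and the next of the 6 aged libraries was 1248. Tsc22d3 in CA1 of the same rat was 2258, and the next was 1118. This library had the fewest CA1 reads, 12292348, each scaled to 1.46 normalized reads, the most in CA1. It had the lowest share of ribosomal protein reads, 0.491%, and the part of these measures in the 2 values was not tested. Nr3c2 in DG of young LPS rat 2408 was 1426, the lowest of 8, and the next was 2109.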

How the results depend on the processing

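Counts of genes called moved with the setting more than the members did. For LPS in CA1 (0 genes) DESeq2 called 1. For age in CA1 (2 genes) the count was 1 with a mean of at least 50 or 2 groups alone, 303 with library weights, 7 with DESeq2, and 0 with the number series or the dissection score in the fit or without the 27 series. For young LPS minus aged vehicle in CA1 (1302) it was 3 with no filter, 0 with 2 groups alone or without the 27 series, 3496 with library weights, 2910 with the number series, 2144 with edgeR and 3263 with DESeq2. In DG, without the 27 series it was 1 for LPS (2), 1 for age (2) and 5 for young LPS minus aged vehicle (2). For age in DG it was 0 with a mean of at least 50, 1 with 2 groups alone or the number series, 8 with library weights and 4 with DESeq2. For young LPS minus aged vehicle in DG it was 0 with a pseudocount of 0.25, no filter or a mean of at least 50, 4 with 2 groups alone, 171 with library weights, 8 with the number series, 1 with edgeR and 22 with DESeq2. Correlations with the members numbered 8948 in CA1, and 1889 without the 2 farthest libraries; in DG 2071, 1054 with Spearman's rho and 19 without the 2 farthest libraries. Leaving out 1 library at a time, the counts ran in CA1 from 0 to 1 for LPS, 0 to 3 for age and 0 to 3399 for young LPS minus aged vehicle, in DG from 2 to 2, 2 to 3 and 0 to 3, and for the region differences from 0 to 2, 0 to 0 and 2 to 2856. The cause of these shifts was not tested.

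Of the members' log2 changes, leave-one-out fits aside, 524 kept direction and side of the threshold, 32 turned sign, 2 gained and 3 lost the call. Per1 in CA1 for young LPS minus aged vehicle lost its call with no filter (0.50, limma adjusted p = 0.0656), with 2 groups alone (0.50, limma adjusted p = 0.0914) and without the 27 series (0.55, limma adjusted p = 0.0874), and its adjusted p over all alternatives ran from 0.0128 to 0.122. It gained one for age in CA1 with library weights (-0.44) and for the region difference with the rat as replicate block (0.50, limma adjusted p = 0.0413); the block changed no other member's call. The values that turned sign, all of uncalled changes, were as follows. Without the 27 series, LPS in CA1 gave Sgk1 0.17 and Tsc22d3 0.22, LPS in DG gave Fkbp5 0.13, Sgk1 0.25, Tsc22d3 0.096, Per1 0.038 and Hsd11b1 -0.062, age in CA1 gave Hsd11b1 -0.10 and age in DG gave Per1 0.013. With the number series in the fit, LPS in CA1 gave Tsc22d3 0.084, LPS in DG gave Fkbp5 0.062, Sgk1 0.11 and Hsd11b1 -0.059, age in CA1 gave Hsd11b1 -0.049 and young LPS minus aged vehicle in CA1 gave Crhr1 0.010. With library weights, LPS in CA1 gave Per1 -0.035 and Hsd11b1 0.045, age in CA1 gave Sgk1 -0.48 and Tsc22d3 -0.14, age in DG gave Fkbp5 -0.068, Sgk1 -0.18 and Hsd11b1 0.012, and young LPS minus aged vehicle in CA1 gave Crhr1 0.23. With edgeR and with DESeq2, Hsd11b1 for age in CA1 was -0.0067 and -0.0079, Sgk1 for age in DG -0.033 and -0.033, and Crhr1 for young LPS minus aged vehicle in CA1 0.064 and 0.070. With the dissection score Fkbp5 for young LPS minus aged vehicle in CA1 was 0.046 and Sgk1 for LPS in DG 0.012, and with TMM factors Per1 for young LPS minus aged vehicle in DG was -0.00032.

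Leaving out 1 library, signs turned within these ranges. In CA1 they were -0.17 to 0.053 for Tsc22d3 and -0.29 to 0.083 for Crhr1 (LPS), -0.094 to 0.32 for Sgk1 and -0.036 to 0.070 for Hsd11b1 (age), and -0.12 to 0.042 for Fkbp5 and -0.16 to 0.21 for Crhr1 (young LPS minus aged vehicle). In DG they were -0.11 to 0.038 for Fkbp5, -0.11 to 0.11 for Sgk1, -0.097 to 0.057 for Tsc22d3 and -0.036 to 0.077 for Hsd11b1 (LPS), -0.014 to 0.096 for Fkbp5 and -0.084 to 0.14 for Sgk1 (age), and -0.076 to 0.041 for Sgk1 and -0.063 to 0.068 for Per1 (young LPS minus aged vehicle). For region differences they were -0.15 to 0.064 for Tsc22d3 and -0.27 to 0.23 for Crhr1 (LPS), -0.092 to 0.25 for Sgk1 (age) and -0.025 to 0.10 for Fkbp5 (young LPS minus aged vehicle). Among correlations of members, 121 kept their sign and 5 turned: Crhr1 over rats was 0.083 without the 2 farthest, and with the number series means removed Sgk1 with Fkbp5 in CA1 was -0.084, Tsc22d3 with Fkbp5 in CA1 -0.139 and Tsc22d3 with Per1 in DG -0.019, the last -0.028 without the 2 farthest. Counting error alone gave Crhr1 a coefficient of variation of 14.5% to 20.9% in its 6 groups, of the 26.5% to 41.4% measured.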
